A study of Sus scrofa with 10 samples.

Results

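T and NK cell transcripts were followed in pig liver through 10 marker symbols, LCK, CD8A, CD247, CD2, CD3E, CD3D, CD3G, GZMA, PRF1 and NKG7, matched by name to the Ensembl identifiers of an RNA-seq table. Of these symbols 8 were found, carried by 9 of the 25009 identifiers because GZMA has 2. CD3E and CD3G had no identifier matched by name and were not analysed here. The 10 libraries came from livers of male pigs, 5 with a phenotype of high growth and fatness (called high) and 5 with low growth and fatness (called low), all labelled 175 for age with no unit. The tissue was frozen at slaughter, no treatment or genotype is named, and whether each sample is a separate animal is not stated, so the spread between samples may be partly technical.

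T cells recognise antigen through a receptor whose signal is carried inward by the CD3 chains and by CD247, the zeta chain, and is started by the kinase LCK. NK cells lack that receptor and kill without it, but they share with cytotoxic T cells the granule proteins perforin, granzymes and NKG7. In pigs NK cells also carry CD2 and CD8A on their surface, so of the genes found only CD3D is restricted to T cells in this pairing. Liver holds resident and circulating lymphocytes in its sinusoids and portal tracts, among a great majority of hepatocytes. In RNA of whole tissue, fewer cells of a type and less RNA per cell cannot be told apart.

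The values are RPKM, a read density corrected for gene length and for library size, so levels of different genes can be compared. Each library had 16195 to 16802 identifiers above 0. Absolute depth is unknown, and the libraries lay between 0.748 and 1.05 times the depth of high replicate 1. The hepatocyte gene ALB, which encodes albumin, stood at 22922 to 52025 RPKM. High replicates 1 and 5 held transcripts of the nervous system. GFAP, the intermediate filament of astrocytes, was at 3.66 and 4.22 RPKM there and at most 0.35 RPKM elsewhere. SCG2 was at 0.85 and 0.90 RPKM and SNAP25 at 0.50 and 0.59 RPKM there, both at most 0.03 RPKM elsewhere. The counts and fold changes of the tested identifiers are given with and without these libraries.

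Every one of the 9 identifiers had a value above 0 in all 10 libraries, at levels from 0.05 to 16.3 RPKM. CD247 was the highest with a mean of 11.7 RPKM over the 10 libraries, followed by NKG7 at 8.75 RPKM. CD247 lay above NKG7 in 8 of 10 libraries, so their order was not the same throughout. GZMA identifier ENSSSCG00000016903 followed at 3.64 RPKM, below NKG7 in 10 of 10 libraries and above CD2 in 9 of 10.

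CD2 (2.73 RPKM), CD8A (2.63 RPKM), LCK (2.44 RPKM) and CD3D (2.37 RPKM) formed a close group of means. CD8A lay above LCK in 5 of 10 libraries and LCK above CD3D in 5 of 10, so these neighbours had no fixed order. PRF1 was lower, at 0.632 RPKM, and the other GZMA identifier, ENSSSCG00000016902, was lowest at 0.128 RPKM. Tests were limited to genes whose RPKM averaged 1 or more over the 10 libraries, which kept 7 of the 9 identifiers. The lowest of those kept was CD3D and the highest of those left out was PRF1.

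The comparison of high with low asked whether lymphocyte transcripts in liver differ between pigs of the high and of the low phenotype. All 7 tested identifiers had the higher mean in low, where 51.2% of the 10931 genes tested did. None passed in limma with Benjamini-Hochberg adjustment over all genes (adjusted p = 0.961 for each), and the background was 0% of genes at that threshold. With an unadjusted p under 0.05 in limma there were 3 of 7, LCK, CD8A and CD247, where 4.55% of all tested genes had one, 2.28% with the higher mean in low. The members were chosen with earlier results of these data known, so these counts describe them and do not test them as a list.

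**Figure D1:**
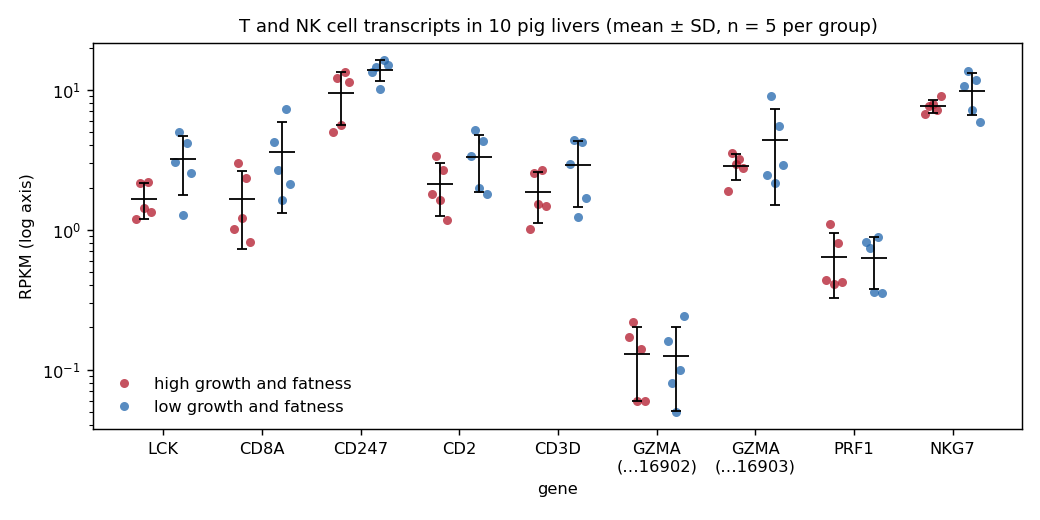
RPKM (log axis) of each identifier in the 5 high and the 5 low libraries, 1 point per library, with black bars for the mean and SD. The groups overlap for all 9 identifiers, and GZMA identifier ENSSSCG00000016902 and PRF1 have nearly equal means in both groups.

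Among the receptor chains, CD3D (ENSSSCG00000015093), the delta chain of CD3, had 1.01, 2.56, 1.53, 2.65 and 1.48 RPKM in high replicates 1 to 5, against 2.94, 4.40, 1.24, 4.23 and 1.69 RPKM in low replicates 1 to 5. Low replicates 1, 2 and 4 lay above every high library, and low replicates 3 and 5 lay among them. The means were 1.85 ± 0.723 RPKM in high and 2.90 ± 1.44 RPKM in low (SD, n = 5 each), a log2 fold change of -0.41 with a 95% interval from -0.99 to 0.18 (limma). It was -0.27 without low replicate 2.

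CD247 (ENSSSCG00000006309) had 5.01, 12.05, 5.57, 13.42 and 11.36 RPKM in high replicates 1 to 5, against 13.36, 14.67, 10.08, 16.26 and 14.94 RPKM in low replicates 1 to 5. High replicates 1 and 3 stood below all other libraries, and low replicate 3 was the lowest of its group. The means were 9.48 ± 3.90 RPKM in high and 13.9 ± 2.35 RPKM in low (SD, n = 5 each). The log2 fold change was -0.58 with an interval from -1.14 to -0.02. Relative to CD3D, CD247 ran from 3.64 to 7.68 times its level in high and from 3.33 to 8.84 times in low, so the chains did not keep 1 ratio across livers.

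LCK (ENSSSCG00000003608), the kinase that phosphorylates these chains, had 1.20, 2.15, 1.43, 2.21 and 1.33 RPKM in high replicates 1 to 5, against 3.05, 5.01, 1.27, 4.20 and 2.56 RPKM in low replicates 1 to 5. All low libraries other than replicate 3 lay above every high library. The means were 1.66 ± 0.479 RPKM in high and 3.22 ± 1.45 RPKM in low (SD, n = 5 each). Its log2 fold change of -0.60 (SE 0.24, interval from -1.13 to -0.08) went with the smallest unadjusted p among these genes (0.0282 in limma's fit across all genes). Relative to CD3D its level had the narrowest fold range of the ratios taken to that gene, at 0.834 to 1.19 in high and 0.993 to 1.51 in low.

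Among the coreceptors and adhesion molecules, CD8A (ENSSSCG00000008217), the alpha chain of the CD8 coreceptor, had 1.01, 2.98, 1.21, 2.33 and 0.82 RPKM in high replicates 1 to 5, against 4.24, 2.68, 1.64, 7.24 and 2.11 RPKM in low replicates 1 to 5. Its highest value, in low replicate 4, was 8.83 times its lowest, in high replicate 5, the widest range among these genes. The means were 1.67 ± 0.938 RPKM in high and 3.58 ± 2.27 RPKM in low (SD, n = 5 each), a log2 fold change of -0.72 with an interval from -1.42 to -0.02. The beta chain, CD8B (ENSSSCG00000008213), averaged 0.756 ± 0.444 RPKM in high and 1.46 ± 0.695 RPKM in low, and it too was highest in low replicate 4, at 2.57 RPKM.

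CD2 (ENSSSCG00000006736), an adhesion receptor of T and NK cells, had 1.80, 3.34, 1.64, 2.67 and 1.18 RPKM in high replicates 1 to 5, against 3.39, 5.19, 1.98, 4.27 and 1.81 RPKM in low replicates 1 to 5. High replicate 2 lay just under low replicate 1, and high replicates 1, 3 and 5 lay below every low library. The log2 fold change was -0.44 with an interval from -1.0 to 0.11.

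Among the tested members, the granule genes NKG7 and GZMA had the log2 fold changes of smallest size. NKG7 (ENSSSCG00000003231), a granule membrane protein needed for killing, had 6.70, 7.62, 7.86, 7.22 and 8.96 RPKM in high replicates 1 to 5, against 10.64, 13.73, 7.13, 11.83 and 5.84 RPKM in low replicates 1 to 5. The high libraries lay close together, and the low libraries reached beyond them on both sides. Its log2 fold change was -0.27 with an interval from -0.71 to 0.17, and it was -0.14 without low replicate 2 and -0.42 without low replicate 5.

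GZMA encodes granzyme A, a protease released into target cells, and its 2 identifiers behaved differently. ENSSSCG00000016903 had 1.90, 3.53, 2.96, 3.20 and 2.74 RPKM in high replicates 1 to 5, against 2.45, 9.05, 2.15, 5.48 and 2.90 RPKM in low replicates 1 to 5. Low replicates 2 and 4 stood above all other libraries, and the other 3 low libraries lay within the range of the high ones. The log2 fold change was -0.35 with an interval from -1.0 to 0.29, and -0.09 without low replicate 2.

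ENSSSCG00000016902 had 0.17, 0.22, 0.06, 0.14 and 0.06 RPKM in high replicates 1 to 5, against 0.16, 0.08, 0.05, 0.10 and 0.24 RPKM in low replicates 1 to 5. The groups overlapped throughout (exact two-sided permutation p = 0.929, log2 difference 0.01). The level of the more abundant identifier was 11.2 to 113 times that of the other in the same library. RefSeq's gene table for Sscrofa11.1 also lists a pair of neighbouring genes named GZMA. Whether reads were divided between such a pair was not tested, so both values are uncertain in that respect.

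PRF1 (ENSSSCG00000010271), which encodes the pore-forming protein perforin, had 0.44, 1.10, 0.41, 0.80 and 0.42 RPKM in high replicates 1 to 5, against 0.82, 0.74, 0.36, 0.88 and 0.35 RPKM in low replicates 1 to 5. The group means were 0.634 ± 0.308 RPKM in high and 0.630 ± 0.256 RPKM in low (SD, n = 5 each, exact two-sided permutation p = 0.992). Over the 252 assignments the smallest p possible was 0.00794, and adjusted over PRF1 and the weaker GZMA identifier both p-values were 0.992. High replicates 2 and 4 and low replicates 1, 2 and 4 had at least 0.74 RPKM, and the remaining 5 libraries had at most 0.44 RPKM.

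That division of libraries recurred in full for CD8A, CD2 and CD3D. For LCK, CD247, NKG7 and GZMA identifier ENSSSCG00000016903 it recurred only in part. High replicate 1 was among the 3 lowest libraries for 7 of the 7 tested identifiers, low replicate 3 for 5, high replicate 5 for 4 and high replicate 3 for 3. Low replicate 4 was among the 3 highest libraries for all 7, low replicate 2 for 6 and low replicate 1 for 5. High replicate 2 was among them for 2 and high replicate 4 for none. Low replicates 2 and 4 lay above the median of the 10 libraries for all 7, and high replicate 1 and low replicate 3 for none. The summed RPKM of the 9 identifiers was 19.2, 35.5, 22.7, 34.6 and 28.4 in high replicates 1 to 5, against 41.0, 55.5, 25.9, 54.5 and 32.4 in low replicates 1 to 5.

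The genes varied together, also within the groups. Pearson correlations of log2(RPKM + 1) between the 7 tested identifiers over the 10 libraries had a median of 0.75 and ran from 0.42 to 0.94 over 21 pairs. With each group centred on its own mean the median was 0.69. These are descriptions over libraries that share 1 normalization, and no test is attached. The within-group SD on the log2 scale had a median of 0.46 over the 7 identifiers, against 0.25 over the 5193 tested genes in the same range of mean level. CD8A varied most, with a within-group SD of 0.58 that 6.18% of those genes exceeded, and NKG7 varied least, with 0.34.

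**Figure D2:**
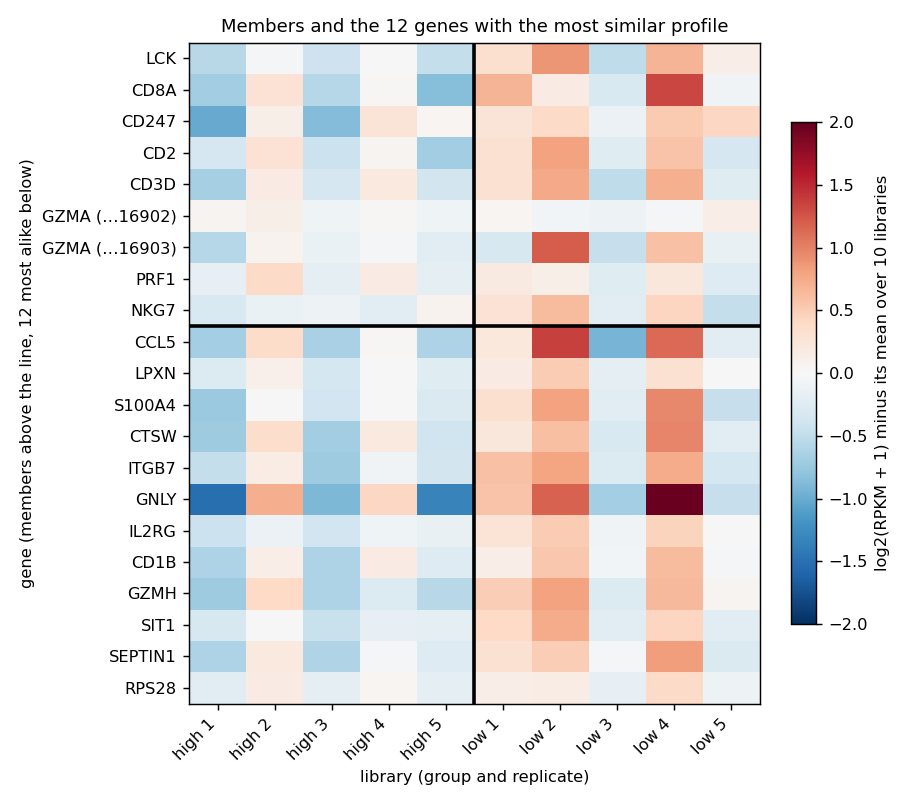
Heat map of log2(RPKM + 1) minus its mean over the 10 libraries for the 9 identifiers (above the line) and the 12 named genes with the most similar profile (below it), high libraries on the left and low libraries on the right. High replicates 1, 3 and 5 and low replicate 3 are mostly blue, low replicates 1, 2 and 4 mostly red, and GZMA identifier ENSSSCG00000016902 is nearly flat.

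Likeness was measured as the Pearson correlation, over the 10 libraries, with the mean of the standardised log2 values of the 7 tested identifiers. Among 7217 other tested genes with a symbol, 103 had a correlation of at least 0.8 and 4 had one of at most -0.8. The closest was CCL5, a chemokine made by activated T and NK cells (r = 0.97). It had 12.26, 26.53, 12.67, 20.63 and 12.86 RPKM in high replicates 1 to 5, against 23.67, 54.23, 10.21, 45.84 and 17.28 RPKM in low replicates 1 to 5.

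Next in likeness were LPXN, an adaptor of blood cells, the calcium-binding protein gene S100A4, CTSW, a protease of cytotoxic lymphocytes, ITGB7, an integrin chain of homing lymphocytes, and GNLY, which encodes the granule protein granulysin (r = 0.95 to 0.96). GNLY had the widest swing of these, with 1.90, 12.58, 3.44, 10.03 and 2.26 RPKM in high replicates 1 to 5, against 11.28, 17.60, 4.15, 31.54 and 4.95 RPKM in low replicates 1 to 5. Low replicate 4 was highest and high replicate 1 lowest, as for CD247. The list of 12 closed with IL2RG, CD1B, GZMH, SIT1, SEPTIN1 and RPS28 (r = 0.93 to 0.94). RPS28 encodes a ribosomal protein, at 619 ± 74.8 RPKM in high and 694 ± 107 RPKM in low. All 12 had the higher mean in low, a direction that their choice by likeness to the markers favours, and none passed over all genes in limma.

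Other genes of T and NK cells were taken from fixed lists. Of 29 genes of T cell receptor signalling and coreceptors 22 were matched and 6 were tested, all 6 with the higher mean in low (median log2 fold change -0.28) and none past the threshold. FYN, a kinase related to LCK, had the smallest p, with 3.66 ± 0.495 RPKM in high and 4.83 ± 0.992 RPKM in low (SD, n = 5 each, unadjusted p = 0.0431 in limma). LCP2, an adaptor of receptor signalling, had 7.50 ± 0.374 RPKM in high and 9.46 ± 1.91 RPKM in low. SKAP1, an adaptor of T cell adhesion, had 0.850 ± 0.465 RPKM in high and 1.29 ± 0.768 RPKM in low. CD4, the coreceptor of helper T cells, had 6.37 ± 1.21 RPKM in high and 6.50 ± 1.59 RPKM in low, a log2 fold change of -0.01.

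Of 14 transcription factors of T and NK cells 4 were tested, all with the higher mean in low and none past the threshold. TBX21, which drives the cytotoxic programme, had 0.59, 1.53, 0.42, 1.14 and 0.40 RPKM in high replicates 1 to 5, against 1.54, 1.57, 0.54, 2.16 and 1.02 RPKM in low replicates 1 to 5. Its profile had a correlation of 0.90 with the markers. ETS1 and TCF7 had log2 fold changes of -0.02 and -0.10.

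The list of cytotoxic granules and killing had 11 tested genes of 16, with the higher mean in high for 2 and in low for 9, and none past the threshold. GZMH, a granzyme gene, averaged 1.04 ± 0.723 RPKM in high and 2.29 ± 0.945 RPKM in low (SD, n = 5 each, unadjusted p = 0.0177 in limma). STXBP2, which serves granule release, had 15.7 ± 2.18 RPKM in high and 20.5 ± 2.69 RPKM in low, and CST7, a granule protease inhibitor, had 1.37 ± 0.326 RPKM in high and 2.16 ± 0.725 RPKM in low. GNLY had the largest log2 fold change of the list, -1.04, with an interval from -2.30 to 0.23. SRGN, the granule proteoglycan that macrophages also make, had a log2 fold change of 0.12 and a correlation of -0.27 with the markers.

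Few receptors and adaptors of NK cells could be followed, since most had no identifier matched by name. Of 16 NK receptors and adaptors 7 were matched and 3 tested, none past the threshold. KLRD1, which encodes a lectin-like receptor chain, was listed at 0 in 5 libraries. Its values were 0.00, 0.20, 0.00, 0.00 and 0.00 RPKM in high replicates 1 to 5, against 0.58, 0.60, 0.00, 1.32 and 0.79 RPKM in low replicates 1 to 5. NCR1, which encodes the receptor NKp46, averaged 0.888 ± 0.195 RPKM in high and 1.03 ± 0.412 RPKM in low. CD244 had 1.14 ± 0.401 RPKM in high and 1.55 ± 0.746 RPKM in low. TYROBP and FCER1G, adaptors that macrophages use as well, had log2 fold changes of -0.00 and -0.16.

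Of 22 cytokines, chemokines and receptors of lymphocytes 8 were tested, with the higher mean in high for 3 and in low for 5, and none passed. IL2RG, the gamma chain shared by several interleukin receptors of lymphocytes, had 3.88, 5.05, 4.0, 5.16 and 4.90 RPKM in high replicates 1 to 5, against 6.93, 8.28, 5.26, 7.95 and 5.47 RPKM in low replicates 1 to 5. Its groups did not overlap, as for 0.805% of all tested genes, and its log2 fold change was -0.46 (SE 0.14, unadjusted p = 0.00662 and adjusted p = 0.961 in limma). CX3CR1 and S1PR1, which macrophages and endothelium express as well, had the higher mean in high, with log2 fold changes of 0.40 and 0.25. Of the list for gamma delta T cells only SOX13 was tested, at 1.75 ± 0.478 RPKM in high and 1.80 ± 0.540 RPKM in low.

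**Figure D3:**
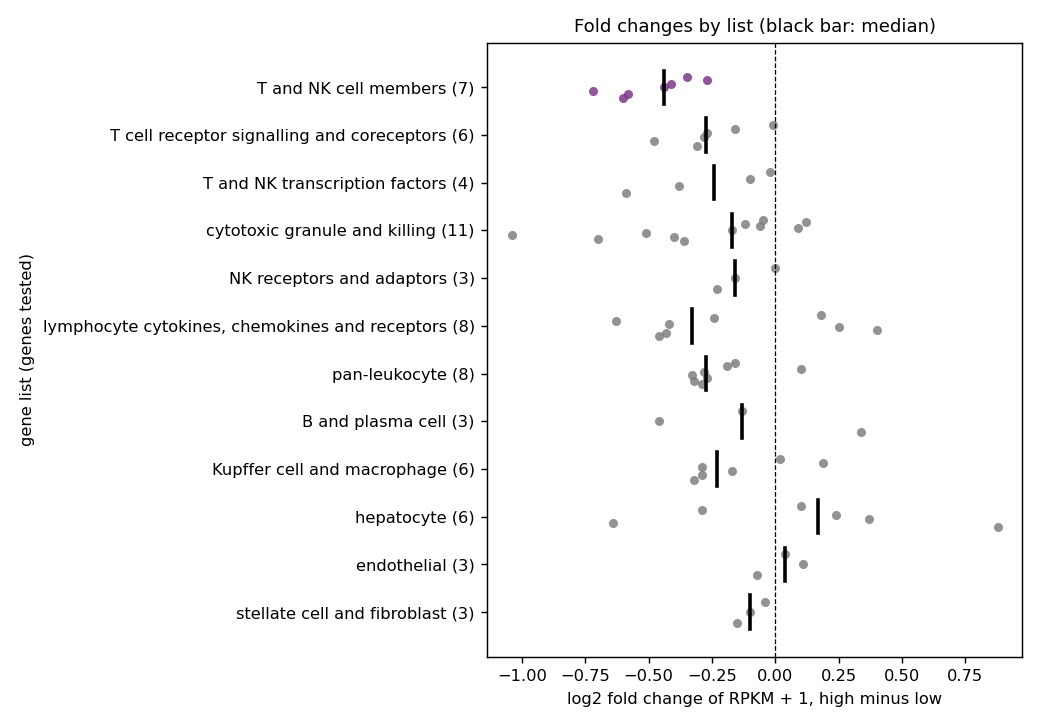
Log2 fold change of RPKM + 1, high minus low, for each tested gene of the lists with at least 3 tested genes, with a black bar at the median. The 7 tested T and NK cell identifiers lie between -0.72 and -0.27 with a median of -0.44, and the medians of the other lists lie between -0.33 and 0.17. All tested genes of the T cell receptor signalling, transcription factor, NK receptor and stellate cell lists also had the higher mean in low.

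The median log2 fold change of the 7 tested identifiers was -0.44 and their mean -0.48, where the median and mean over all tested genes were -0.00. In the authors' deposited table the same 7 had signed folds of 1.27 to 2.08, a sign that goes with higher values in low, and p-values from 0.05 for LCK to 0.27 for GZMA. PRF1 stood at a fold of -1.08 with a p of 0.76 in the authors' deposited table.

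Markers of other cell types were set beside these values. Of the pan-leukocyte list 7 of 8 tested genes had the higher mean in low, and its summed RPKM was 63.3 to 74.4 in high and 53.1 to 131 in low. PTPRC, the leukocyte common antigen CD45, had 10.20, 10.21, 10.80, 11.86 and 10.93 RPKM in high replicates 1 to 5, against 14.63, 20.10, 10.70, 16.67 and 8.97 RPKM in low replicates 1 to 5. Low replicates 1, 2 and 4 were again above every high library. Per unit of PTPRC, LCK was 0.154 ± 0.0421 in high and 0.223 ± 0.0640 in low (ratio, SD, n = 5 each), while NKG7 was 0.712 ± 0.0817 in high and 0.687 ± 0.0311 in low. On the same scale CD3D was 0.17 ± 0.0641 in high and 0.196 ± 0.0509 in low. CD247 was 0.871 ± 0.34 in high and 1.05 ± 0.362 in low.

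For Kupffer cells and macrophages 4 of 6 tested genes had the higher mean in low, and the summed RPKM was 379 to 413 in high and 316 to 586 in low. For B and plasma cells it was 2 of 3, with sums of 6.38 to 8.93 RPKM in high and 5.03 to 15.6 RPKM in low, the highest in low replicate 2, where the plasma cell gene MZB1 had 8.89 RPKM. The exception was BANK1, a B cell adaptor, at 3.20 ± 0.703 RPKM in high and 2.30 ± 0.410 RPKM in low (SD, n = 5 each, log2 fold change 0.34, unadjusted p = 0.0272 in limma). Red blood cell markers had the higher mean in low for both tested genes and sums of 64.4 to 228 RPKM in high and 98.9 to 208 RPKM in low, and for neutrophils 1 gene was tested, with sums of 1.12 to 4.04 RPKM in high and 1.11 to 8.62 RPKM in low. Of the matched markers in these lists none was at 0 in every library. Low replicate 4 had high T and NK cell markers with a Kupffer cell sum of 370 RPKM, below every high library, and low replicate 2 was highest in both. The genes in the Kupffer cell sum did not move together in low replicate 4. CD14 was at 109.15 RPKM and C1QA at 178.23 RPKM there, each within its range in high (77.07 to 180.47 and 154.19 to 187.12 RPKM). MARCO had its highest value of all libraries there, 12.19 RPKM. A separate course of Kupffer cells was therefore not shown.

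Hepatocyte markers had the higher mean in high for 4 of 6 tested genes, with sums of 56774 to 75645 RPKM in high and 48029 to 76221 RPKM in low. The endothelial, cholangiocyte and stellate cell lists had only 3, 1 and 3 tested genes, with median log2 fold changes of 0.04, -0.05 and -0.10. The cholangiocyte value is that of EPCAM alone. Relative depth was under 0.8 in high replicate 2 and low replicates 1 and 2. The low pair had high T and NK cell marker values, and high replicate 2 had the highest marker sum of its group (35.5 RPKM). Low replicate 4, at a relative depth of 1.03, had a marker sum of 54.5 RPKM. The part of these cell types and of depth in the differences was not tested.

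**Figure D4:**
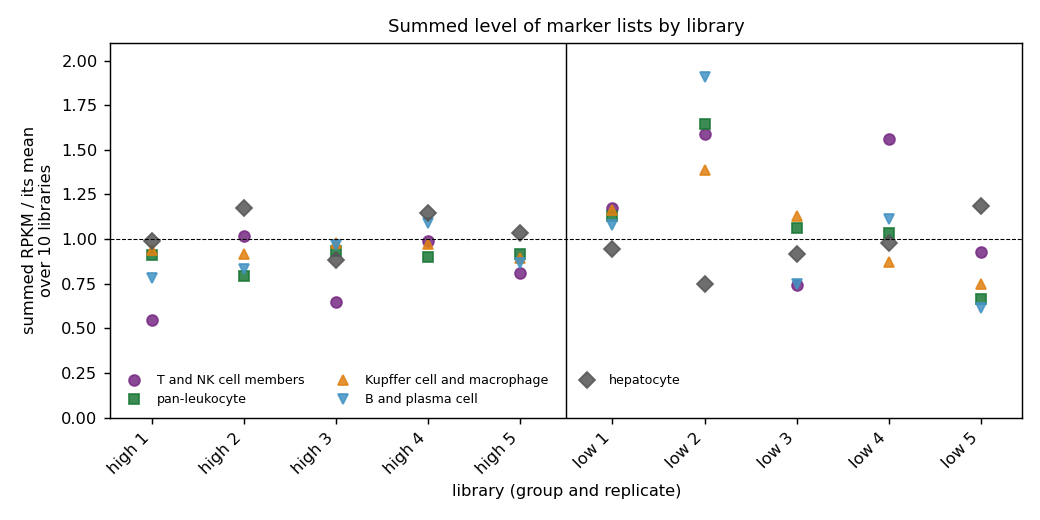
Summed RPKM of each marker list divided by its own mean over the 10 libraries, 1 symbol per list and library, high libraries left of the line and low libraries right of it. The T and NK cell sum (purple circles) is highest in low replicates 2 and 4, and the Kupffer cell sum (triangles) is high in low replicate 2 and below its mean in low replicate 4.

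The direction rested on no single library, but the unadjusted calls did. Without any 1 library, or without both high replicates 1 and 5, all 7 tested identifiers still had the higher mean in low. Without both high replicates 1 and 5 the log2 fold change was -0.20 for CD3D, -0.45 for CD247, -0.46 for LCK and -0.45 for CD8A. It was -0.25 for CD2, -0.28 for NKG7 and -0.21 for GZMA identifier ENSSSCG00000016903. The number with an unadjusted p under 0.05 in limma was 0 without high replicate 1, high replicate 3, low replicate 2 or low replicate 4, and also 0 without both high replicates 1 and 5. It was 1 without high replicate 5 or low replicate 1, and 4 without high replicate 2, low replicate 3 or low replicate 5.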

How the data were processed

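Liver RNA of 10 samples was sequenced in paired reads of 75 bp from TruSeq v2 libraries, per the labels' protocols. The kit does not mark strand, so overlapping antisense reads cannot be told apart. The submitters' processing notes name the build Sscrofa10.2. No aligner, counter or annotation release is named (not given in the sources used here). Per the file headers, the authors' values are RPKM per identifier, and 624 values of 1000 or more, written with a second dot between digit groups, were read without the first. The authors also deposited a signed fold change and a p-value whose test is not stated in the file headers.

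Values were analysed as log2(RPKM + 1), which understates changes of low genes. Genes averaging 1 RPKM or more were fitted with limma 3.58.1 in R 4.3.3 (trended eBayes, two-sided, no covariates, high minus low, Benjamini-Hochberg over 10931 genes, threshold 0.05). The fit was tested on simulated data, in which genes varied independently and changes were larger than those of the members. Its power for changes of the members' size was not assessed. PRF1 and 1 GZMA identifier fell below the filter and were compared by exact permutation. Relative depth came from steps of values under 0.01 RPKM, where 44 of 44 usable pairs of libraries closed within 1%. Whole reads were not recovered, so counting intervals could not be given.

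The table of Ensembl names matched 11779 identifiers. Named genes were every member, up to 4 tested genes of smallest p per further list and the 12 genes most like the mean profile. KLRD1, NCR1, SRGN, CD4 and other genes named beyond that rule were chosen after their values were seen. A few genes chosen this way are not reported here. The members and the 17 further lists were chosen with earlier results of these data known. The alternatives were other pseudocounts, filters, scalings and fits, and leaving out libraries. Sequencing lanes are not given in the labels, so no batch could be examined. No coordinates are given, since the gene table used is of another build.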

Additional observations from a re-analysis of the deposited data

How the results depend on the processing

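Under 18 alternatives the 7 tested identifiers kept the sign of their log2 fold change in 126 of 126 values, and the smallest adjusted p was 0.643 (limma). The mean log2 fold change, -0.48 with all libraries, ran from -0.63 to -0.37 when each library was left out in turn and was -0.33 without both high replicates 1 and 5. The number with an unadjusted p under 0.05 ran from 0 to 4 when each library was left out and was 0 without both high replicates 1 and 5. The difference for PRF1, -0.0009 on the log2 scale, turned to 0.01 with median ratio scaling, 0.04 with quantile normalization and 0.11 without both high replicates 1 and 5. Leaving out each library in turn gave -0.10 to 0.05 for PRF1 and -0.02 to 0.04 for GZMA identifier ENSSSCG00000016902, and the cause was not tested. No paired analysis was possible because the labels give no donor, litter or replicate number shared between the groups. The replicate numbers used here only follow the order of the samples within each group. DESeq2 was not run, since no counts were used here. With absolute depth unknown, differences in genes under 1 RPKM could not be bounded by counting error.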

Other observations

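Genes of dividing cells were low in these livers, and none of the 3 matched reached the filter. TOP2A, a topoisomerase of dividing cells, had 0.46, 1.20, 0.39, 0.94 and 0.23 RPKM in high replicates 1 to 5, against 0.67, 2.42, 0.96, 0.77 and 0.62 RPKM in low replicates 1 to 5. MZB1, a gene of antibody-secreting cells, had at most 2.73 RPKM outside low replicate 2, and it was singled out after its values were seen. The exhaustion and regulation markers CTLA4, TIGIT and FOXP3 stayed at or under 0.55 RPKM in all libraries, and CTLA4 was listed at 0 in 5 of them. LAG3, a further such marker, reached 0.62 RPKM in high replicate 2, and PDCD1 had no identifier matched by name.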
